A study of Mus musculus with 8 samples.

Results

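A set of 10 genes of the unfolded protein response and the integrated stress response, Atf4, Atf3, Ddit3, Xbp1, Hspa5, Herpud1, Trib3, Ppp1r15a, Asns and Chac1, was measured in CD4+ effector T cells that had spent 6 weeks in lymphocyte-deficient mice. The 10 genes were taken by name from the 37411 genes of the count table, and each was described in all 8 RNA-seq libraries. About 10000 cells bearing a congenic marker were sorted for each library. The donor T cells carried the retroviral construct LMPd with a short hairpin against Mdr1 (gene Abcb1a), an efflux pump for drugs and other xenobiotics, or, as the control, one against CD8, a coreceptor that CD4+ T cells do not normally use. The hosts were Rag1-/- on a C57BL/6 background in all 8 libraries. They were either Slc10a2 +/+ (Asbt+/+) or Slc10a2 -/- (Asbt-/-), Asbt being the transporter that takes up bile acids in the ileum. Cells came from small intestine or spleen. With 3 factors of 2 levels each, there was 1 library per combination. The hairpin was read from the sample titles, since the retrovirus field of the labels names shMdr1 for every library. Rag1-/- hosts keep their myeloid, erythroid, epithelial and innate lymphoid cells. The labels do not say how many animals stand behind a library or which libraries shared an animal, so the spread behind every p-value may be technical in part.

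The unfolded protein response is the reaction of a cell to misfolded protein in the endoplasmic reticulum, and the integrated stress response is the wider programme that slows translation through phosphorylation of the initiation factor eIF2alpha. ATF4 is translated when eIF2alpha is phosphorylated and switches on genes of amino acid supply and redox balance, while ATF3, CHOP (encoded by Ddit3) and TRIB3 act further down that arm. XBP1, made active by IRE1 splicing of its mRNA, and ATF6 drive chaperones such as BiP (encoded by Hspa5) and the degradation component HERP (encoded by Herpud1). Ppp1r15a encodes GADD34, which brings a phosphatase to eIF2alpha and ends the arrest. Gene counts hold neither the splicing of Xbp1 nor the translation of Atf4.

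RefSeq promoter windows (GRCm38.p6, from 250 bases before to 50 bases after the gene start) were found for 10 of 10 genes and searched on both strands for the letters of known stress elements. The counts were made on the older build mm9 and carry no coordinates, so none were converted. The endoplasmic reticulum stress element (ERSE, CCAAT and CCACG with 9 bases of any kind between) occurred in Hspa5 alone among the 10 and in 0.119% of 32851 windows of the same length. The related ERSE-II (ATTGG and CCACG with 1 base between) occurred in Herpud1 alone among the 10 and in 0.0365% of windows. The ATF4-type element TTGCATCA, called CARE here, occurred in Atf3, Herpud1 and Chac1 and in 0.895% of windows. The cAMP response element (TGACGTCA, its own reverse complement) occurred in Ppp1r15a and in 1.79% of windows. The XBP1 element TGACGTGG was in none of the 10 and in 0.676% of windows, and ATTACGTCA, a variant of the cAMP response element, was in Atf3 and in 0.0852%. The looser ATF4-type element TGATGNAA, which includes every CARE read on the other strand, was in Atf3, Herpud1, Trib3, Asns and Chac1 and in 3.97% of windows. The 4 upstream stretches below, 250 bases each up to the gene start, are shown because they belong to the gene with the highest level (Hspa5), a gene with both kinds of element (Herpud1), a gene with a CARE whose level varied widely (Atf3) and a gene with the same CARE that had no count (Chac1). Capitals mark the letters of an ERSE, ERSE-II or CARE, and each sequence reads from 5′ to 3′ on the strand of the gene.
Hspa5, chr2:34771840-34772089, plus strand: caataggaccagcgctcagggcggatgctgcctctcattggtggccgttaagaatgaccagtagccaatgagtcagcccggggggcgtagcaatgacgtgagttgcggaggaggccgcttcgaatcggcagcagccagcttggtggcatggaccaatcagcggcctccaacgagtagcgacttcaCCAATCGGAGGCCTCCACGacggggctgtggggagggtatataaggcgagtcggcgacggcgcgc
Herpud1, chr8:94386179-94386428, plus strand: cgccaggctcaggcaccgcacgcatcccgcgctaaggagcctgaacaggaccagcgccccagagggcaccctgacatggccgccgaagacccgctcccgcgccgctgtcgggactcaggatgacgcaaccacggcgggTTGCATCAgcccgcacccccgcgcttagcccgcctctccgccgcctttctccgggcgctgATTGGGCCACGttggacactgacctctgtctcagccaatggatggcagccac
Atf3, chr1:191183334-191183583, minus strand: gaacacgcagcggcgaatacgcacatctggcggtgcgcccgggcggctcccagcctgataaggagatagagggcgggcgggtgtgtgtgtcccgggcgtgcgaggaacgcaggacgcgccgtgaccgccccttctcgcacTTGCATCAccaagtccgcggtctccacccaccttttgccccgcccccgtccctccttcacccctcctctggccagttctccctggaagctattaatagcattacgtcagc
Chac1, chr2:119350992-119351241, plus strand: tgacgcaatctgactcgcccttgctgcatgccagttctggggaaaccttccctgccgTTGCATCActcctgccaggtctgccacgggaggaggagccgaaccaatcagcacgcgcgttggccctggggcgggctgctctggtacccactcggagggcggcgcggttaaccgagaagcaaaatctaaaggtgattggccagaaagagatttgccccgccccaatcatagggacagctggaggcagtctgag
The ERSE of Hspa5 began 65 bases upstream of the start and the ERSE-II of Herpud1 52 bases upstream. The CARE began 112 bases upstream in Herpud1, 110 in Atf3 and 193 in Chac1. A match of letters is a description of the sequence and not a site of binding.

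The libraries held 1685225 to 2767105 counts. The library labelled shCD8 small intestine Asbt+/+ stood apart, with counts for 8456 genes against 11345 to 13184 in the other 7. Mitochondrial transcripts took 18.3% of counts in shMdr1 small intestine Asbt+/+, 17.6% in shCD8 spleen Asbt-/- and 26.8% in shMdr1 spleen Asbt-/-, while the remaining 5 had 6.63 to 8.62%. Abcb1a, the target of the hairpin, had fewer counts after scaling with shMdr1 than with shCD8 in 3 of 4 pairs, but 14.8 against 8.28 CPM (counts scaled to a common library size with TMM factors) in small intestine of Asbt+/+ hosts, so the labels of that pair were not borne out by this gene. Cd8a, which the control hairpin targets, had 150 counts (96.3 CPM) in the shMdr1 library of that same pair and 0 in the shCD8 library. That is the direction of the labels. The shCD8 library is the one with the fewest detected genes and also had 0 for other genes, such as Eif2ak1 and Pdia4. Its 0 for Cd8a therefore does not settle the labels of the pair. Cd8a was also lower in the shCD8 library for small intestine of Asbt-/- hosts (22.7 against 27.7 CPM) and in spleen of Asbt+/+ hosts (3.01 against 12.9 CPM), and it had no count in either spleen library of Asbt-/- hosts. Slc10a2, whose loss is in host tissue, had 1 and 3 counts in 2 libraries of Asbt-/- hosts and 0 in the other 6, so it checks no label. T cell markers summed to 6277 to 10526 CPM in small intestine and 6770 to 7743 CPM in spleen, with 0 of 12 markers at 0 in either tissue.

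Most of the genes were well detected, and the 3 classical end points of strong ATF4 signalling were not. Hspa5 had 18016 counts over the 8 libraries, Atf4 5476, Ppp1r15a 4448, Herpud1 2199, Atf3 1635, Ddit3 1390 and Xbp1 862, each with counts in 8 of 8 libraries. Asns, which makes asparagine, had 56 counts in 6 libraries. Trib3, a pseudokinase that restrains ATF4 and CHOP, had 29 counts in 5 libraries. Chac1, an enzyme that degrades glutathione, had 0 counts in each library, which allows up to 3 counts, or 1.18 to 1.93 CPM depending on the library (counting error only). The filter on low counts passed 8 of the 10 genes and left out Trib3 and Chac1.

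Per kilobase of merged exons (GENCODE vM21 models, GRCm38), the order of levels was Hspa5 with 240.7 CPM per kilobase (mean of 8 libraries, SD 36.9), Atf4 with 129 (SD 29.8), Ppp1r15a with 86.2 (SD 21.6), Herpud1 with 52.5 (SD 21.6), Ddit3 with 47.2 (SD 29.1), Atf3 with 41.2 (SD 29.5), Xbp1 with 15.1 (SD 7.05), Asns with 1.31 (SD 1.36) and Trib3 with 0.883 (SD 1.18). Only Hspa5 was clear of its neighbour, with a lowest library of 188 against 182 CPM per kilobase in the highest library of Atf4. Ppp1r15a overlapped Atf4, the levels of Herpud1, Ddit3 and Atf3 overlapped throughout, and Xbp1 reached up into the range of Atf3 and, in 1 library, down into that of Asns. These gene models may differ from those the authors counted on.

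**Figure D1:**
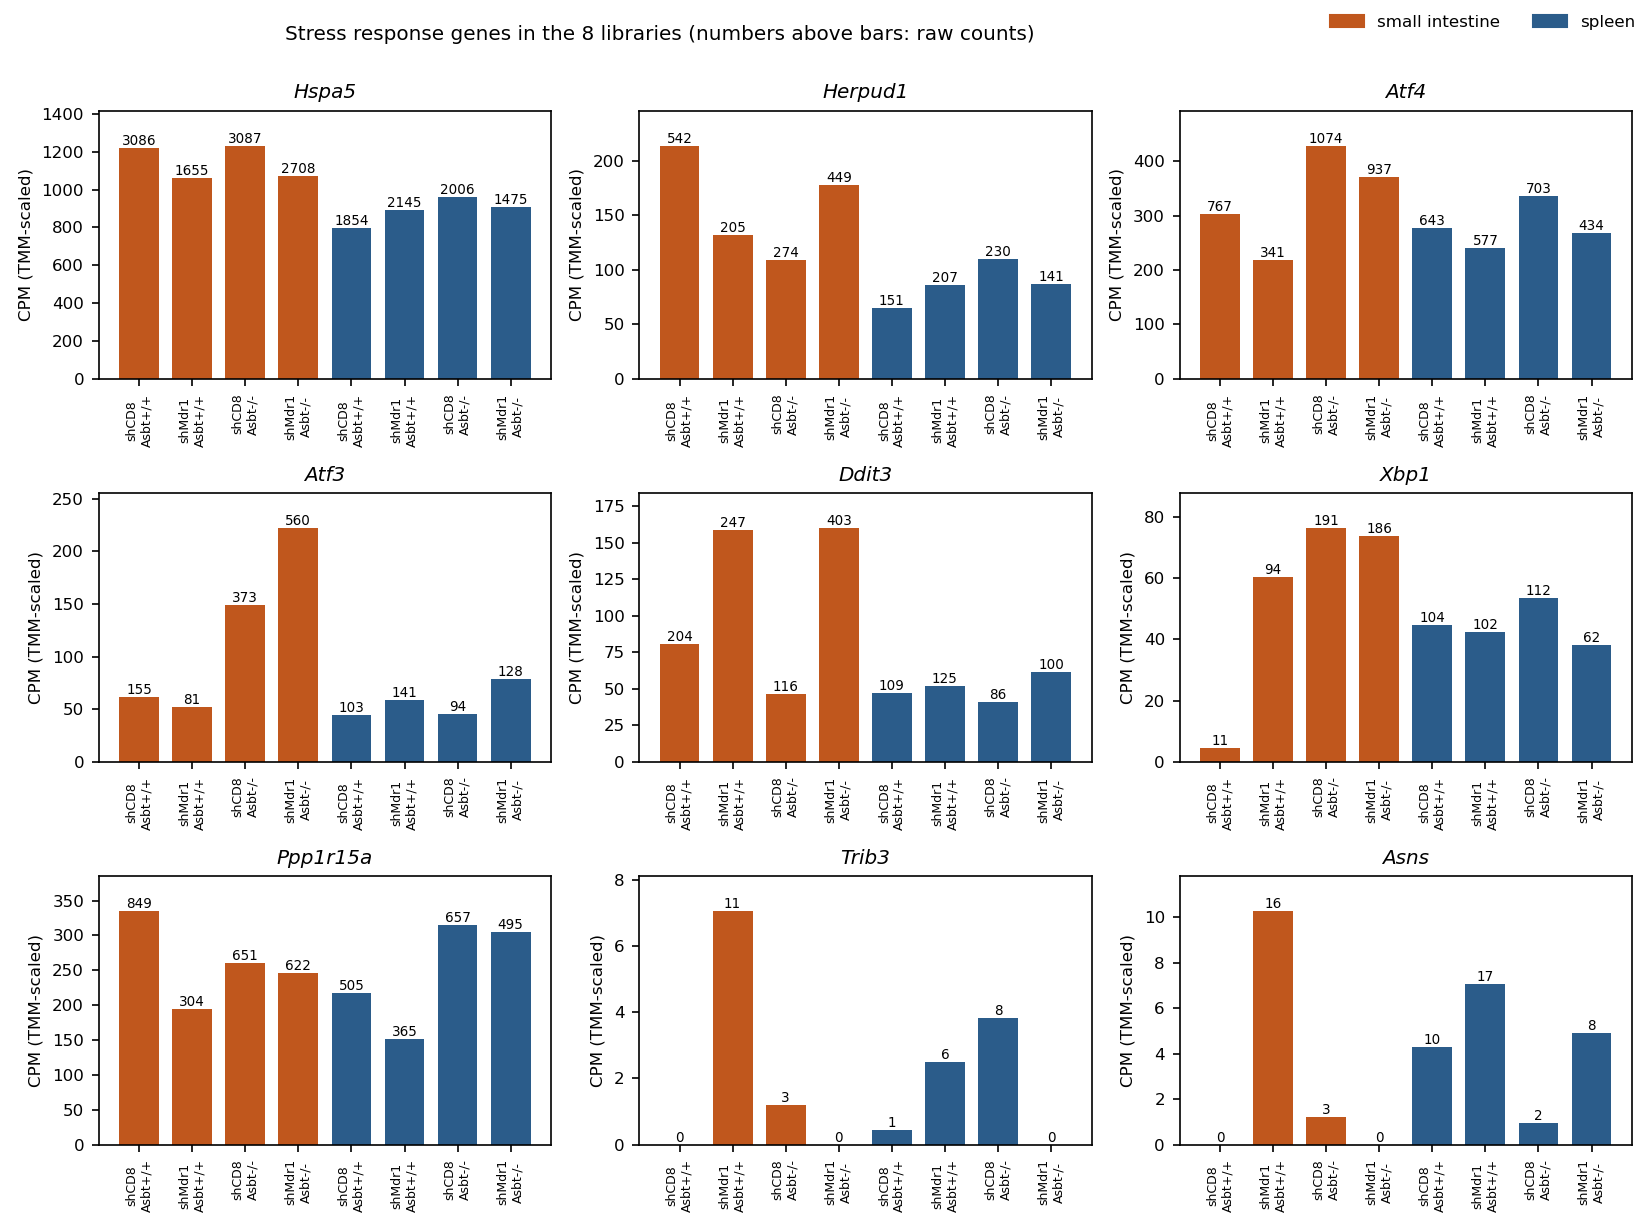
TMM-scaled CPM (y axis, linear, from 0) of 9 genes in the 8 libraries (x axis, hairpin and host), small intestine in orange and spleen in blue, with raw counts above the bars. Hspa5 is higher in all 4 small intestine libraries, Atf3 peaks in the small intestine libraries of Asbt-/- hosts, Ddit3 peaks in the shMdr1 libraries of small intestine, and Xbp1 has 11 counts in shCD8 small intestine Asbt+/+.

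Among the transcription factors, Atf4 varied least. In small intestine Atf4 stood at 302 CPM in shCD8 Asbt+/+, 219 in shMdr1 Asbt+/+, 429 in shCD8 Asbt-/- and 371 in shMdr1 Asbt-/-, and in spleen at 276, 240.2, 337 and 267 CPM in the same order. The tissues overlapped, the lowest library was shMdr1 small intestine Asbt+/+, and the highest were the small intestine libraries of Asbt-/- hosts.

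Atf3, a stress- and activation-induced repressor of the same family, had a far wider range. In small intestine it stood at 61.1 CPM in shCD8 Asbt+/+, 52.0 in shMdr1 Asbt+/+, 149 in shCD8 Asbt-/- and 222 in shMdr1 Asbt-/-. In spleen the corresponding Atf3 values were 44.3, 58.7, 45.0 and 78.8 CPM. Thus Atf3 was high in both small intestine libraries of Asbt-/- hosts and stayed between 44.3 and 78.8 CPM in the other 6 libraries.

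Ddit3, whose product CHOP is known for driving death after unresolved stress, was highest in the shMdr1 libraries of small intestine. It stood there at 80.4 CPM in shCD8 Asbt+/+, 159 in shMdr1 Asbt+/+, 46.3 in shCD8 Asbt-/- and 160 in shMdr1 Asbt-/-. In spleen it stood at 46.9, 52.0, 41.2 and 61.6 CPM in the same order. The pair of shMdr1 values in small intestine lay far above the other 6, and the shCD8 small intestine Asbt-/- library lay within the spleen range. In GENCODE vM21, 81 bases of the Ddit3 exons overlap Mars or Gm4189 on the opposite strand, and the sources used here give no strand setting for the counting. Mars, a tRNA synthetase gene, ranged from 10.8 to 33.1 CPM, with 33.1 and 32.7 CPM in the small intestine libraries shCD8 and shMdr1 of Asbt+/+ hosts and 10.8 and 12.3 CPM in those of Asbt-/- hosts.

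Xbp1 had 11 counts (4.34 CPM) in shCD8 small intestine Asbt+/+, the library with the fewest detected genes. In the other 3 small intestine libraries it stood at 60.3 CPM in shMdr1 Asbt+/+, 76.2 in shCD8 Asbt-/- and 73.7 in shMdr1 Asbt-/-. In spleen the 4 Xbp1 values lay between 38.2 and 53.6 CPM, below those 3 libraries and above the first. Plasma cells and secretory epithelium are known for high Xbp1. Of the 11 B and plasma cell markers, Jchain, Mzb1 and Tnfrsf17 were among those at 0 in small intestine and Ms4a1, Mzb1, Sdc1, Tnfrsf17 and Iglc1 in spleen, while Sdc1 had 40 counts in shCD8 small intestine Asbt+/+, Jchain 9 counts in shCD8 spleen Asbt-/-, and Igkc and Ighm counts in each library. The 11 markers summed to 17.3 to 225 CPM in small intestine and 80.6 to 200.4 CPM in spleen, with 225 CPM in the library where Xbp1 was lowest. The 14 epithelial and secretory cell markers summed to 45.6 to 289 CPM in small intestine and 0 to 101 CPM in spleen, with Krt20, Muc2 and Spdef at 0 in small intestine and Fabp1, Spdef and Defa24 in spleen. The secretory genes Tff3 and Agr2 reached 31.3 and 80.9 CPM in small intestine and 3.01 and 20.2 CPM in spleen. The part of such cells in the Xbp1 values was not tested.

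Of the genes of the endoplasmic reticulum, Hspa5 was the steadiest. In small intestine it stood at 1217 CPM in shCD8 Asbt+/+, 1062 in shMdr1 Asbt+/+, 1232 in shCD8 Asbt-/- and 1073 in shMdr1 Asbt-/-, and in spleen at 797, 893, 961 and 908 CPM in the same order. Every small intestine library lay above every spleen library, although the lowest of the former (1062 CPM) and the highest of the latter (961 CPM) were close. Herpud1 stood at 214, 132, 109 and 178 CPM in small intestine and at 64.9, 86.2, 110.1 and 86.8 CPM in spleen, in that order of libraries. For Herpud1 the ranges of the tissues met at shCD8 Asbt-/-, where small intestine had 109 and spleen 110.1 CPM.

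Of the feedback genes, Ppp1r15a stood at 335 CPM in shCD8 Asbt+/+, 195 in shMdr1 Asbt+/+, 259.8 in shCD8 Asbt-/- and 246 in shMdr1 Asbt-/- in small intestine, and at 217, 152, 315 and 305 CPM in spleen. The ranges of the tissues overlapped from 195 to 315 CPM, and the lowest library of each tissue was shMdr1 Asbt+/+. Trib3 had 0, 11, 3 and 0 counts in small intestine and 1, 6, 8 and 0 counts in spleen.

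Asns, the enzyme gene often used as a readout of ATF4, was not high where Atf4 was high. It had 0, 16, 3 and 0 counts in small intestine and 10, 17, 2 and 8 counts in spleen, in the order shCD8 Asbt+/+, shMdr1 Asbt+/+, shCD8 Asbt-/- and shMdr1 Asbt-/-. The 2 libraries with the most Asns counts, shMdr1 spleen Asbt+/+ and shMdr1 small intestine Asbt+/+, were the 2 with the lowest Atf4. At these counts a difference of a few reads moves the rank of a library.

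**Figure D2:**
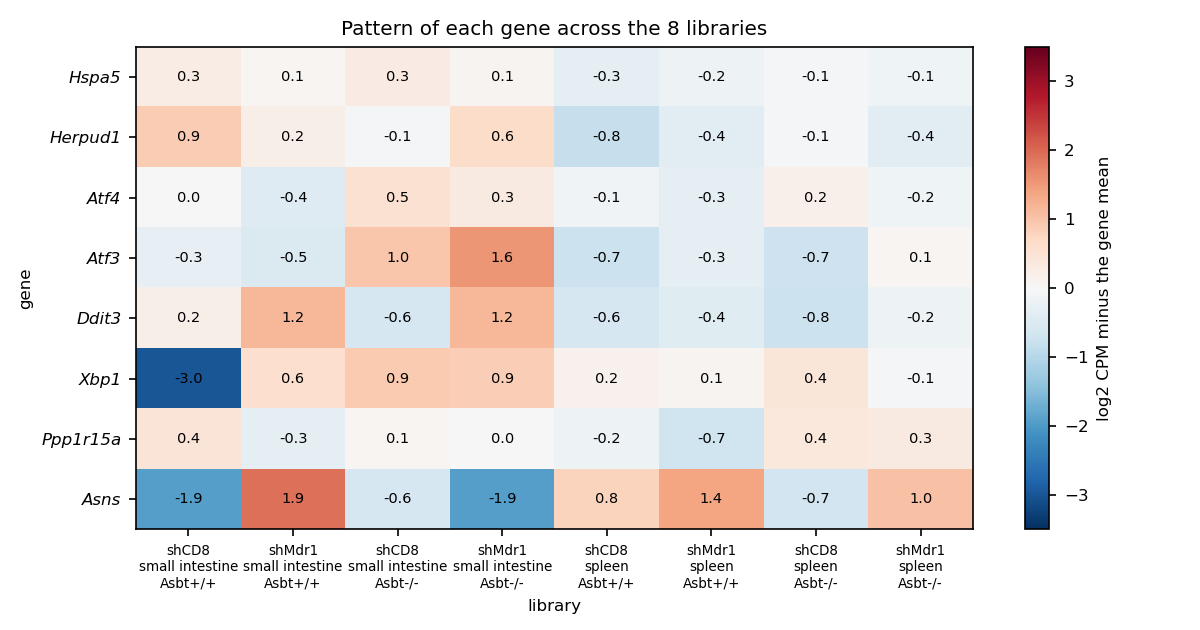
log2 CPM minus the mean of each gene (colour and printed value, prior count 2) for the 8 tested genes (rows) in the 8 libraries (columns). No single pattern covers the 8 genes: Atf3 is above its mean in small intestine of Asbt-/- hosts, Ddit3 with shMdr1 in small intestine, and Asns in libraries where Atf4 is below its mean.

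Within the 8 tested genes some pairs ran together over the libraries, which share depth and tissue. Hspa5 and Herpud1 had a Pearson r of 0.81 over 8 libraries, Atf4 and Atf3 0.67 and Ddit3 and Herpud1 0.63, whereas Atf4 and Ddit3 had -0.20. Xbp1 and Hspa5 had -0.26, and 0.87 over the 7 libraries without shCD8 small intestine Asbt+/+. These values are descriptions without a test.

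The genes closest in pattern to Atf4 among 5074 others of at least 20 CPM on average were Ddx5, an RNA helicase (Pearson r = 0.94, Spearman rho = 0.88), Bag3, a co-chaperone of HSP70 (r = 0.94, rho = 0.93), and Fau, which encodes a ribosomal protein fused to a ubiquitin-like one (r = 0.93, rho = 0.95). They were picked as the highest of all genes over 8 libraries that share depth and tissue, so the values describe likeness only. The genes closest to Xbp1 were Aff4, a transcription elongation factor, Vps26a, a retromer subunit, and Gtpbp1, a GTP-binding protein, all with r = 0.99. In shCD8 small intestine Asbt+/+, Aff4 had 0.789 CPM, Vps26a 2.37 CPM and Gtpbp1 0, beside 4.34 CPM of Xbp1. Without that library their r with Xbp1 was 0.90, 0.87 and 0.88.

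The first comparison asked how the response differs between small intestine, where bile acids are present, and spleen. In the additive fit of all 8 libraries, 7 of the 8 tested genes had a log2 fold change above 0 in small intestine, with Ddit3 at 1.00 ± 0.33 (SE), Atf3 at 0.90 ± 0.36, Herpud1 at 0.87 ± 0.31, Hspa5 at 0.36 ± 0.23, Atf4 at 0.21 ± 0.22, Ppp1r15a at 0.11 ± 0.26 and Xbp1 at 0.03 ± 0.67. Asns stood at -1.07 ± 1.57. The values of Xbp1 and Ppp1r15a changed sign when single libraries were left out. The median of the 8 genes was 0.29, and that of all 10000 tested genes was -0.17. How many of all tested genes lay above 0 was not counted. None of the 8 passed the edgeR quasi-likelihood test over all genes at an adjusted p of 0.05, which called 0.62% of genes.

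The smallest adjusted p was that of Ddit3 (0.375), followed by Herpud1 (0.418) and Atf3 (0.521, edgeR). At an unadjusted p under 0.05 these 3 of the 8 were below the threshold, as were 845 of 10000 genes, and neither DESeq2 nor limma-voom called any of the 8. Ddit3 averaged 111 ± 57.0 CPM in small intestine (SD, n = 4), against 50.4 ± 8.65 CPM in spleen, and was higher in 4 of 4 pairs of libraries alike in hairpin and host. Hspa5 averaged 1146 ± 90.8 against 889.6 ± 68.1 CPM, also higher in 4 of 4 pairs, whereas 8.11% of all tested genes were higher in all 4. Hspa5 was the only 1 of the 8 whose tissue ranges did not overlap, and 3.39% of all tested genes were higher in small intestine without overlap. Herpud1 averaged 158 ± 46.8 against 87.0 ± 18.5 CPM and Atf3 121 ± 80.2 against 56.7 ± 16.2 CPM, each higher in 3 of 4 pairs.

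Host cell markers differed between the tissues as well. Neutrophil markers summed to 10.7 to 193 CPM in small intestine and 837 to 7447 CPM in spleen, and erythroid markers to 38.3 to 105 and 1089 to 41544 CPM. Macrophage and dendritic cell markers summed to 219.7 to 397 CPM in small intestine and 78.2 to 358 CPM in spleen. Their part in the tissue differences was not tested, and tissue and isolation procedure cannot be told apart. In bulk RNA, fewer cells of a type and less RNA per cell cannot be told apart. In counts simulated on this design, 8 of 100 genes with a true log2 change of 1 and 57 of 100 with a change of 2 were called in the tissue comparison, so most changes of the size seen for Ddit3 went uncalled there.

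**Figure D3:**
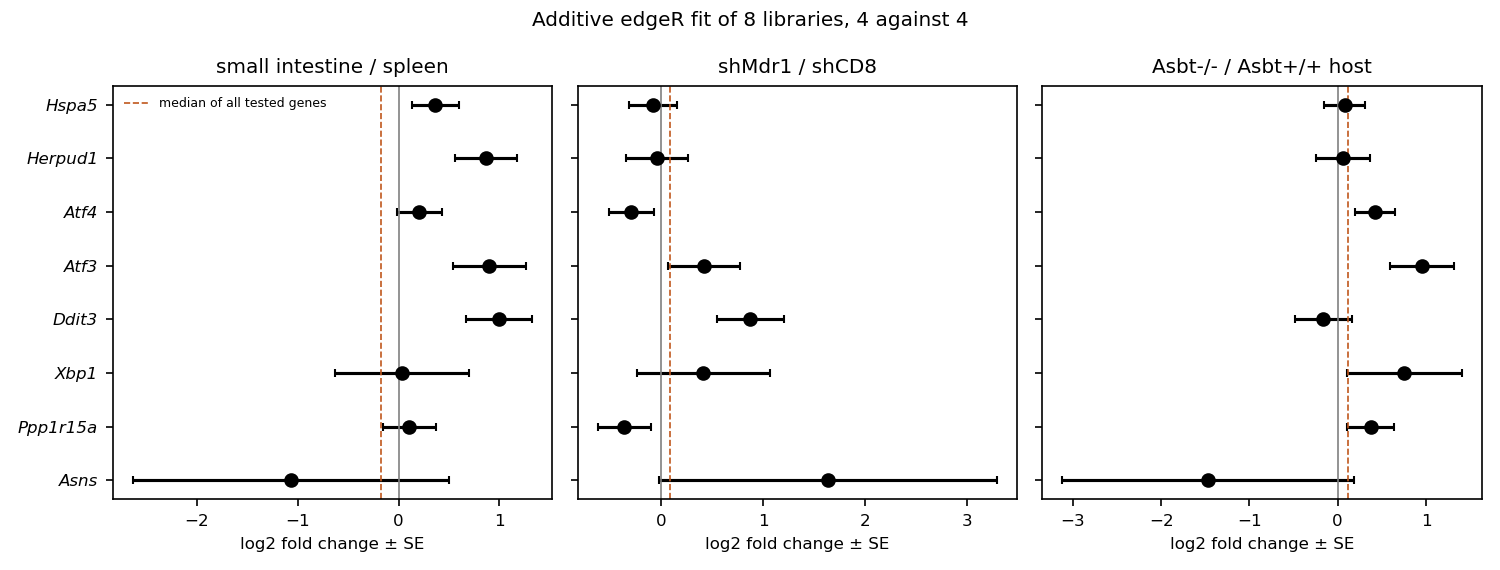
log2 fold change ± SE (x axis) of the 8 tested genes in the additive fit for tissue, hairpin and host (4 libraries against 4), with the median of all tested genes as a dashed line. No value passed the test; in the tissue panel Ddit3, Atf3 and Herpud1 lie near 1, and in the hairpin panel Ddit3 lies at 0.87 while Atf4 and Ppp1r15a lie below 0.

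The second comparison asked what the hairpin against Mdr1 changes. Ddit3 had the largest value of the well-detected genes, at 0.87 ± 0.33, and Atf3 followed at 0.42 ± 0.35 and Xbp1 at 0.41 ± 0.65. Ppp1r15a stood at -0.36 ± 0.26, Atf4 at -0.29 ± 0.22, Hspa5 at -0.08 ± 0.23 and Herpud1 at -0.042 ± 0.30. Asns stood at 1.64 ± 1.66 on 41 counts with shMdr1 and 15 with shCD8. None of the 8 passed the edgeR test (adjusted p = 0.999 for each), which called 0% of genes. At an unadjusted p under 0.05, 1 of the 8 (Ddit3) and 299 of 10000 genes were below the threshold, and DESeq2 called 0 of the 8 and 4 of all genes, limma-voom 0 and 0.

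Pair by pair, 3 of the 8 genes kept a direction. Ddit3 was higher with shMdr1 in 4 of 4 pairs (7.68% of all tested genes were), and Atf4 and Ppp1r15a were lower in 4 of 4 (7.36% were). For none of the 8 were the hairpin groups free of overlap over the 4 libraries each (2.79% of all tested genes were). The same pair directions were found for these 3 genes with DESeq2 size factors and with plain library totals. For Ddit3 the ratio of shMdr1 to shCD8 was 3.45 (95% counting interval 2.80 to 4.28) for small intestine with Asbt-/- hosts and 1.97 (1.63 to 2.38) with Asbt+/+ hosts. In spleen it was 1.49 (1.11 to 2.02) in Asbt-/- and 1.11 (0.852 to 1.45) in Asbt+/+ hosts, the last interval holding 1. These intervals compare single libraries and cover the counting error of reads only. The reads carry no molecular identifiers, so the counting error of the original molecules is not covered.

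Atf4 had ratios of 0.724 (0.635 to 0.823) and 0.866 (0.793 to 0.946) in small intestine of Asbt+/+ and Asbt-/- hosts, and of 0.869 (0.775 to 0.974) and 0.794 (0.702 to 0.896) in spleen. All 4 intervals of Atf4 lay below 1, although the level remained between 219 and 429 CPM throughout. The share of all tested genes with 4 such intervals was not counted. Intervals clear of 1 were common, since in each pair only 1 to 3 of the 8 genes had an interval holding 1. Ppp1r15a had ratios of 0.583 (0.51 to 0.665) in small intestine and 0.700 (0.61 to 0.802) in spleen of Asbt+/+ hosts, and ratios of 0.949 and 0.969 with intervals holding 1 in the Asbt-/- pairs.

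The remaining genes had no common direction. Atf3 was higher with shMdr1 in 3 of 4 pairs, with ratios of 1.49 in small intestine of Asbt-/- hosts, 1.33 and 1.75 in the spleen pairs, and 0.851 in the small intestine pair of Asbt+/+ hosts. Herpud1 split by pair, at 0.616 and 1.63 in small intestine and 1.33 and 0.788 in spleen of Asbt+/+ and Asbt-/- hosts, with all 4 intervals clear of 1. Hspa5 stayed between 0.871 and 1.12. Xbp1 was at 13.9 (7.43 to 28.8) in small intestine of Asbt+/+ hosts, against 0.967, 0.950 and 0.712 elsewhere. Without shCD8 small intestine Asbt+/+ the fitted log2 value of Xbp1 moved from 0.41 to -0.22. In that same pair Asns had 16 counts against 0 and Trib3 11 against 0. With the empty library set to 3 counts, and the 16 and 11 taken as exact, they were 8.68-fold and 5.97-fold higher with shMdr1. These values are not lower limits, and the empty library was the one with the fewest detected genes. In small intestine of Asbt-/- hosts Asns and Trib3 each had 3 counts in the shCD8 library and 0 in the shMdr1 library. In spleen Asns had 17 counts with shMdr1 against 10 in Asbt+/+ hosts and 8 against 2 in Asbt-/- hosts, so that it was higher with shMdr1 in 3 of 4 pairs. Trib3 had 6 against 1 and 0 against 8 counts there. The mitochondrial share was 6.63 to 26.8% in the shMdr1 libraries and 7.06 to 17.6% in the shCD8 libraries, and its part in these differences was not tested.

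**Figure D4:**
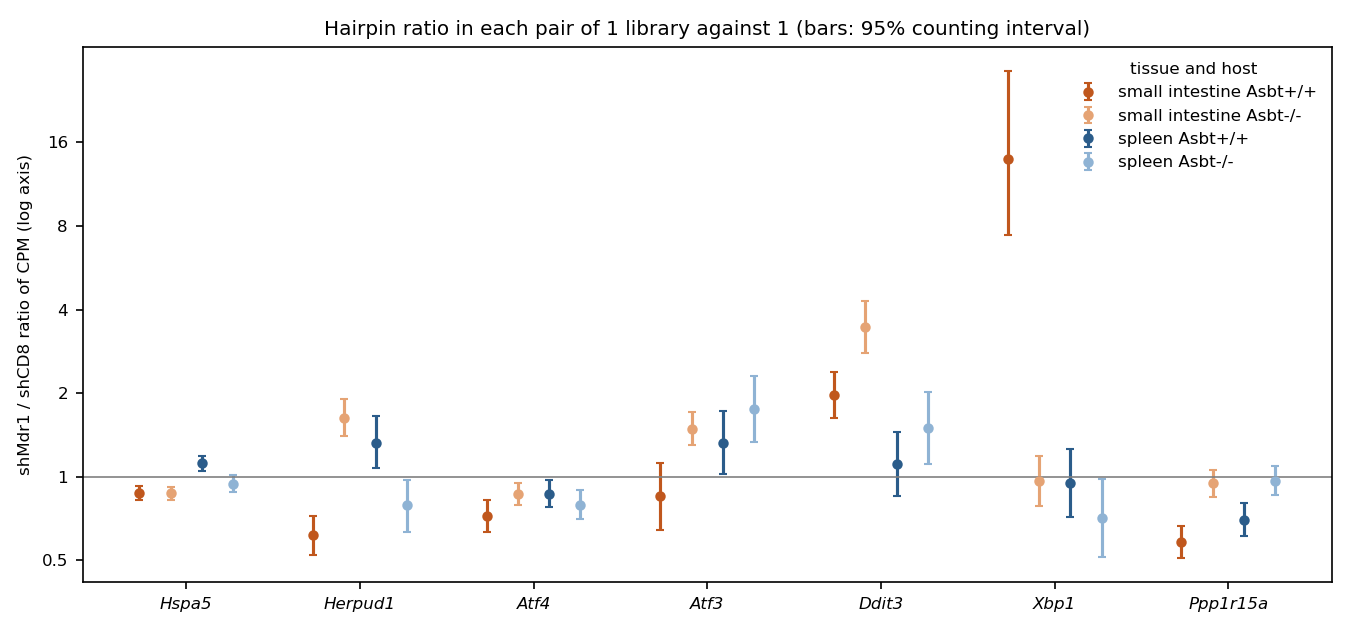
Ratio of shMdr1 to shCD8 CPM (y axis, log scale) for 7 genes in each of the 4 pairs of tissue and host, 1 library against 1, with 95% counting intervals as bars. Ddit3 lies above 1 in all 4 pairs and Atf4 below 1 in all 4, while Xbp1 is displaced to 13.9 in a single pair.

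Separate hairpin effects were then fitted in each tissue, 2 libraries against 2. For Ddit3 the log2 fold change with shMdr1 was 1.38 ± 0.43 in small intestine (adjusted p = 0.785, edgeR) and 0.36 ± 0.42 in spleen (adjusted p = 1), and the difference between them was 1.02 ± 0.60 (adjusted p = 1). Xbp1 stood at 1.73 ± 1.02 in small intestine and -0.28 ± 0.85 in spleen, a difference of 2.01 ± 1.33 into which the library with 11 counts enters. For the other 6 genes the difference between tissues was -0.43 to 0.25, each smaller than its SE. No gene of the 10000 was called in small intestine, in spleen or in the difference (0% each), with 481, 62 and 170 genes at an unadjusted p under 0.05. DESeq2 called 26, 3 and 1 genes, none of them among the 8, and limma-voom called 0 in each.

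The dependence of the hairpin effect on the host was also fitted. The hairpin effect in Asbt-/- minus that in Asbt+/+ hosts was 0.55 ± 0.66 for Ddit3, 0.49 ± 0.72 for Atf3, 0.61 ± 0.52 for Ppp1r15a, 0.06 ± 0.48 for Atf4 and -1.33 ± 1.26 for Xbp1 (adjusted p = 1 for each, edgeR). The edgeR test called 0% of genes, with 119 at an unadjusted p under 0.05 and none of the 8 among them. DESeq2 called 0 genes and limma-voom 3, none among the 8.

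The third comparison asked how cells from hosts without the ileal bile acid transporter differ from cells of Asbt+/+ hosts. Atf3 averaged 124 ± 78.5 CPM in Asbt-/- and 54.0 ± 7.55 CPM in Asbt+/+ hosts, a log2 fold change of 0.95 ± 0.36. Xbp1 stood at 0.76 ± 0.65, Atf4 at 0.42 ± 0.22, Ppp1r15a at 0.37 ± 0.26, Hspa5 at 0.08 ± 0.23 and Herpud1 at 0.057 ± 0.30. Ddit3 stood at -0.16 ± 0.32 and Asns at -1.47 ± 1.65. None passed the edgeR test (adjusted p = 0.996 for each), which called 0% of genes. At an unadjusted p under 0.05, 1 of the 8 (Atf3) and 271 of 10000 genes were below the threshold, and DESeq2 called 0 of the 8 and 4 of all genes, limma-voom 0 and 0.

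Atf3, Atf4 and Hspa5 were higher in Asbt-/- hosts in 4 of 4 pairs, as 8.5% of all tested genes were, and for none of the 8 were the host groups free of overlap (2.71% of all tested genes were). With plain library totals this became 3 of 4 for Atf3 and Atf4 and 2 of 4 for Hspa5, and with DESeq2 size factors 2 of 4 for Hspa5. The mitochondrial share was 17.6 and 26.8% in the spleen libraries of Asbt-/- hosts and 6.63 and 7.33% in those of Asbt+/+ hosts. The 8 neutrophil markers summed to 837 and 3001 CPM in spleen of Asbt-/- hosts and to 6728 and 7447 CPM in spleen of Asbt+/+ hosts. Their sums for small intestine were 10.7 and 40.7 CPM against 111 and 193 CPM. The 14 epithelial and secretory cell markers summed to 45.6 and 53.1 CPM in small intestine of Asbt-/- hosts and to 127 and 289 CPM in that of Asbt+/+ hosts. The part of any of these in the host values was not tested. In small intestine the log2 effect of the host on Atf3 was 1.68 ± 0.42 (adjusted p = 0.624, edgeR), against 0.23 ± 0.41 in spleen (adjusted p = 1). The difference between those effects was 1.46 ± 0.58 (adjusted p = 0.937). It was the only 1 of the 8 with an unadjusted p under 0.05 in that comparison, as were 431 of 10000 genes, and none of either was called by edgeR (0%). DESeq2 called 21 genes there and limma-voom 0, none among the 8.

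Xbp1 had a host effect of 2.09 ± 1.02 in small intestine and 0.06 ± 0.85 in spleen. Without shCD8 small intestine Asbt+/+ its value over both tissues moved from 0.76 to 0.12. Ppp1r15a went the other way round, at -0.02 ± 0.34 in small intestine and 0.77 ± 0.34 in spleen, a difference of -0.78 ± 0.48 (adjusted p = 0.937, edgeR). Within small intestine and within spleen edgeR called 0% of genes for the host, with 743 and 102 at an unadjusted p under 0.05. DESeq2 called 59 and 17, none of the 8 among them, and limma-voom called 0 in each.

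The wider pathway was read from lists of genes grouped by known function. In the tissue comparison none of 10 stress sensors and eIF2alpha kinases, 17 chaperones and folding enzymes, 18 degradation and translocation genes, 15 ATF4 amino acid and stress targets and 13 tRNA synthetases passed the edgeR test. Their median log2 fold changes were -0.23, 0.05, 0.24, -0.03 and -0.28, against -0.17 for all tested genes. Of the degradation and translocation genes, Ssr3, a subunit of the translocon-associated complex, stood at 0.84 ± 0.25 (adjusted p = 0.287, edgeR). Among ATF4 targets, Slc3a2, the heavy chain of amino acid exchangers, stood at 0.81 ± 0.21 (adjusted p = 0.185, and 0.0354 with DESeq2) and Eif4ebp1, a translation repressor, at -1.84 ± 1.11. Of the folding enzymes, Pdia6 stood at 0.67 ± 0.29 and Dnajc3, an inhibitor of eIF2alpha kinases, at -0.41 ± 0.28. Ppp1r15b, which holds the constitutive eIF2alpha phosphatase, stood at -0.90 ± 0.40 and Eif2s1, which encodes eIF2alpha, at 0.15 ± 0.32. Of the tRNA synthetases, Eprs stood at 1.03 ± 0.35 and Lars at -2.01 ± 1.05. Without shCD8 small intestine Asbt+/+ the value of Eprs was 1.33 (adjusted p = 0.0352, edgeR).

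Immediate early genes, which antigen receptor and stress signals induce within minutes, were listed because Atf3 responds to such signals too, and 4 of 20 passed the test as higher in small intestine. Nr4a3 stood at 3.14 ± 0.26 (adjusted p = 0.000611), Nr4a1 at 2.39 ± 0.27, Nr4a2 at 2.13 ± 0.34 and Egr2 at 2.47 ± 0.42 (edgeR). These are nuclear receptors and a zinc finger factor induced by antigen receptor signalling. No other gene of the list passed, and the list held genes of both directions. Gadd45b stood at 320 to 483 CPM in small intestine and 129 to 240 CPM in spleen. Klf6 stood at 895 to 1065 CPM in small intestine and 500 to 835 CPM in spleen. Fos stood lower in small intestine, at 1236 to 1887 CPM against 2000 to 3398 CPM in spleen. Nr4a3 and Nr4a1 passed with each library left out in turn. Nr4a2 passed only without shCD8 small intestine Asbt+/+ or shMdr1 small intestine Asbt-/-, with adjusted p of 0.0538 to 0.122 in the other 6 fits, and Egr2 only without shCD8 small intestine Asbt+/+, with 0.0624 to 0.148 in the other 7 and 0.0530 under limma-voom.

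Between hairpins none of the same lists had a gene that passed. The medians were -0.27 for sensors and kinases, -0.07 for folding enzymes, -0.18 for degradation and translocation, 0.47 for ATF4 targets, 0.17 for tRNA synthetases and -0.08 for immediate early genes, against 0.09 for all genes. In shCD8 small intestine Asbt+/+, the ATF4 targets Phgdh, Nupr1 and Eif4ebp1 had no count, and Shmt2 and Cebpg stood at 0.394 and 1.18 CPM. The other tested targets stood at 5.52 to 230 CPM there. The part of that library in the median of 0.47 was not tested. Slc3a2 stood at 230, 351, 288.5 and 443 CPM in small intestine and 140, 182, 171 and 249 CPM in spleen, in the order shCD8 Asbt+/+, shMdr1 Asbt+/+, shCD8 Asbt-/- and shMdr1 Asbt-/-. It was thus higher with shMdr1 in 4 of 4 pairs (0.54 ± 0.21). Mthfd2, a mitochondrial one-carbon enzyme and an ATF4 target too, was lower in 4 of 4 pairs, at -0.93 ± 0.32, with 100.2, 53.9, 100.2 and 34.1 CPM in small intestine and 59.8, 45.0, 65.6 and 35.7 CPM in spleen. Ppib, a cyclophilin of the endoplasmic reticulum, stood at 0.97 ± 0.28 and the chaperone Canx at -0.54 ± 0.22. None of these 4 passed (adjusted p = 0.999 for each, edgeR).

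Between hosts none passed either, with medians of 0.10, 0.08, -0.13, -0.05, 0.22 and 0.15 for the 6 lists in the same order, against 0.11 for all genes. Cebpb, a bZIP partner of ATF4 and CHOP, stood at 0.87 ± 0.38, Syvn1, the ubiquitin ligase of endoplasmic reticulum degradation, at 0.83 ± 0.48, and Ssr3 at -0.58 ± 0.25 (adjusted p = 0.996 for each, edgeR).

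**Figure D5:**
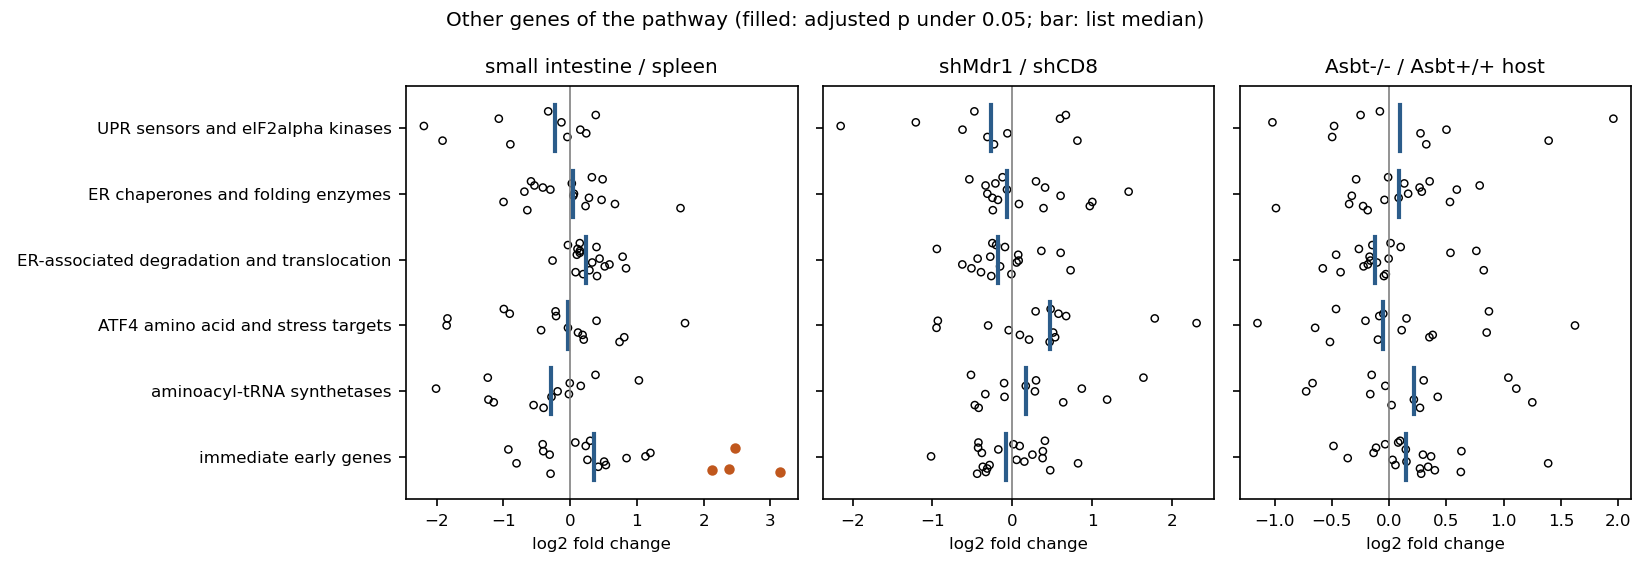
log2 fold change (x axis) of each tested gene of 6 lists (rows) for tissue, hairpin and host, with list medians as vertical bars and genes that passed the edgeR test filled. The filled points are the 4 immediate early genes in the tissue panel, and all other genes are open.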

How the data were processed

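RNA-seq libraries came from a SMART-Seq kit for very little RNA, per the labels' protocols. The authors deposited raw counts for each gene, made with TopHat, HTSeq and DESeq2 among the tools and mm9 as the build, per the submitters' processing notes. The sources used here give no versions, annotation or strand setting. Of 37411 genes, 17570 had counts, and filterByExpr (edgeR 4.0.16, R 4.3.3) kept 10000 with 99.52% of counts. Counts were scaled with TMM and fitted with edgeR's quasi-likelihood model: additively (4 residual degrees of freedom), with hairpin and host effects in each tissue (2), and with hairpin by host (3). Adjusted p-values are Benjamini-Hochberg over all tested genes, called at 0.05. The SE is the absolute log2 fold change over the square root of F. CPM use TMM-scaled library sizes. Ratios of single libraries carry exact Clopper-Pearson 95% counting intervals. On simulated counts, 8 to 57 of 100 changed genes were called for tissue, 9 to 58 for hairpin and 6 to 58 for host, at log2 changes of 1 and 2. DESeq2 1.42.0, limma-voom (limma 3.58.1), other scalings and filters and leaving out each library were alternatives.

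The genes and lists were chosen with earlier results of these data known. The 10 genes were named in every comparison. From each list the text names passing genes, up to 4 per direction by smallest p, or, where none passed, genes with the smallest p in a direction. Likeness was taken over genes of mean CPM at least 20, for Atf4 and Xbp1, 3 genes each. Mars, Tff3, Agr2, the markers named beside Xbp1 and the genes under other observations were chosen after their values were seen. So were Fos, Gadd45b and Klf6 for tissue, Eif2ak1 and Pdia4 beside Cd8a, and the ATF4 targets named for low counts in shCD8 small intestine Asbt+/+. A marker result is not reported here.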

Additional observations from a re-analysis of the deposited data

Results flagged for a closer look

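In the library shMdr1 small intestine Asbt+/+, Asns stood at 10.3 CPM (16 counts) and Trib3 at 7.06 CPM (11 counts), each far from the other 3 small intestine libraries, which had 0 to 3 counts of either gene. Both were singled out because the gap to the nearest library took more of the range of the 4 libraries than Dixon's 95% critical value allows. Of 18 groups of 4 libraries examined, these 2 were singled out, both by the same library. The rate of about 1 in 20 by chance holds for normally spread values. Counts of 0 to 16 are not spread in that way, so the rate does not apply to these 2 genes. The same library had 18.3% mitochondrial counts and the highest sum of epithelial and secretory cell markers (289 CPM), and the part of either in these values was not tested.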

How the results depend on the processing

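No alternative called any of the 10 genes in any comparison. Counts over all genes moved. For tissue they went from 62 to 165 with no filter and 257 with DESeq2, and to 12 to 145 when a library was left out: 145 and 12 without shCD8 and shMdr1 small intestine Asbt+/+, 40 and 38 without shCD8 and shMdr1 small intestine Asbt-/-, 34 and 27 without shCD8 and shMdr1 spleen Asbt+/+, and 22 and 25 without shCD8 and shMdr1 spleen Asbt-/-. From 0, the hairpin count became 9 with no filter and 4 with DESeq2. The host count became 14 and 4, and 0 to 4 with a library left out, the 4 without shCD8 small intestine Asbt+/+. DESeq2 and a fit of that tissue alone called 26 and 2 genes for the hairpin in small intestine, 3 and 82 in spleen, 59 and 6 for the host in small intestine and 17 and 155 in spleen. DESeq2 called 1 and 21 for the differences of hairpin and host effects between tissues, and no filter and limma-voom each called 3 for hairpin by host. The cause of these moves was not tested, beyond the larger number of genes without a filter (17570).

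Values that changed sign were small or rested on 1 library. Xbp1 in the tissue comparison was -0.0014 with DESeq2, -0.12 with a term for each matched pair of libraries and -0.52 to 0.66 with a library left out, the highest without shCD8 small intestine Asbt+/+. Ppp1r15a there ranged from -0.11 to 0.27. Between hairpins, Xbp1 ranged from -0.22 to 0.94, and Herpud1 from -0.25 to 0.28, with 0.028 under limma-voom and 0.017 with the pair term. Between hosts, Ddit3 ranged from -0.38 to 0.087 and Herpud1 from -0.13 to 0.34. Herpud1 for the hairpin in small intestine was -0.0065, -0.0053 and -0.0067 with DESeq2 size factors, no filter and DESeq2, and Hspa5 for the host there was -0.055 with DESeq2 size factors and with DESeq2. The labels give no replicate numbers, so libraries were paired only by design. Eif2s1 in the tissue comparison ranged from -0.059 to 0.28 with a library left out. Ddit3 kept its sign for tissue (0.76 to 1.26) and hairpin (0.59 to 1.11) and Atf3 its sign for host (0.61 to 1.26) with each library left out. Depth limits Asns, Trib3 and Chac1, where 3 counts are 1.18 to 1.93 CPM.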

Other observations

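Among other targets of ATF4, Cth, Slc7a11, Gdf15 and Sesn2 had 21 to 56 counts in all and Nupr1 280, with reads in 2 to 6 of the 8 libraries. Each had its highest value in small intestine. They were chosen after their values were seen, so that shared place is not a result. Stc2, another target, had 4 counts, all in shMdr1 spleen Asbt+/+. Cth, an enzyme of cysteine synthesis, stood at 12.8 CPM in shMdr1 small intestine Asbt+/+ and at 0.396 CPM or less in the other 7 libraries. Nupr1, a stress-induced nuclear protein, stood at 111 CPM in the same library, at 23.4 CPM in shMdr1 small intestine Asbt-/- and at 0 to 9.99 CPM elsewhere. That library also had the most Asns and Trib3 and the lowest Atf4 mRNA, and the highest sum of epithelial markers.

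Slc7a11, Gdf15 and Sesn2 are named together because each had its highest value in a small intestine library of Asbt-/- hosts. Atf3 was highest in such libraries too, and a link between them was not tested. The share of all low-count genes with such a peak was not counted. Gdf15 and Sesn2 rest on 1 library, since in shCD8 small intestine Asbt-/- they stood at 0.399 and 3.19 CPM. Slc7a11, the cystine transporter subunit, stood at 13.2 CPM in shCD8 and 4.36 CPM in shMdr1 small intestine Asbt-/- and at 0 in the other 6 libraries. Gdf15, a stress cytokine, stood at 11.1 CPM and Sesn2, an inhibitor of mTORC1, at 13.5 CPM in shMdr1 small intestine Asbt-/-, against at most 0.860 and 3.83 CPM in the other 7. Vldlr and Cbs had no count in any library. These genes other than Nupr1 did not pass the filter on low counts and were not tested, and 9 of the 24 ATF4 targets of the list were left out in this way.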
